A study of Homo sapiens with 9 samples.

Results

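Cathepsins are proteases that work mainly in lysosomes, and the 9 described here were found by gene symbol among the 21170 features of a table of RNA counts from HaCaT cells. CTSL, CTSS, CTSB and CTSK encode cysteine proteases that cut inside a protein chain. CTSC, CTSH and CTSZ encode cysteine proteases that trim chain ends, CTSD encodes an aspartic protease and CTSA a serine carboxypeptidase. All 9 passed the filter on low counts that left 13713 genes for testing.

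Cathepsins are made as inactive precursors, carried to the lysosome largely by mannose 6-phosphate receptors, and activated there at low pH. They degrade proteins delivered by endocytosis and autophagy, and some have narrower tasks, such as the trimming of the invariant chain of MHC class II by cathepsin S and, in mouse thymus, by cathepsin L. In the epidermis, cystatins and serpins hold them in check, and cathepsin D takes part in keratinocyte differentiation and shedding.

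HaCaT is an immortal line of human keratinocytes that arose without a virus or oncogene. The cells carried a mutant FTO whose demethylase activity is disrupted (mut-FTO), wild-type FTO (FTO) or an empty vector (Vector), with 3 libraries of poly(A) RNA in each group. FTO demethylates adenosines of RNA, and the series asks about FTO, the matrix protein gene FN1 and dermatitis of a psoriatic kind. No treatment, time after transduction, or clone is given in the labels, and nothing tells whether replicates were cultured separately, so p-values here measure only how these libraries spread, which may be technical.

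The libraries held 32222203 to 37846027 counts each. The FTO gene was at 49.7, 82.7 and 64.3 CPM, the counts scaled to library size, in mut-FTO, 69.6, 77.1 and 62.6 CPM in FTO and 18.4, 17.0 and 25.8 CPM in Vector. FN1 was at 7.001, 8.93 and 7.25 CPM in mut-FTO, 25.2, 39.1 and 26.9 CPM in FTO and 220.1, 229.8 and 278.5 CPM in Vector. The FTO values set Vector apart, while mut-FTO and FTO columns were told apart by the letters of their names alone. Vector replicate 3 stood apart, with 14.97% of its counts in mitochondrially encoded genes against 3.80% to 7.45% in the other 8 libraries, and it and mut-FTO replicate 2 held 2.498% and 3.17% of counts in unnamed assembled loci, against 0.689% to 0.874% elsewhere. All 8 keratinocyte markers had counts in every library. Their summed level was 24902 to 31753 CPM in mut-FTO, 21786 to 22784 CPM in FTO and 17990 to 23816 CPM in Vector.

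In mut-FTO cells, 4 of the 9 cathepsins fell against Vector and none rose. CTSL fell 3.60-fold and CTSS 4.07-fold, while CTSC fell 1.55-fold and CTSZ 1.44-fold, by edgeR's quasi-likelihood test with Benjamini-Hochberg adjustment over all genes tested. Of all genes tested in this comparison, 7.78% passed the threshold of an adjusted p below 0.05 in either direction, 4.51% as lower and 3.27% as higher. In FTO cells, 0 of the 9 passed against Vector, where 0.744% of all genes did, 0.438% as lower and 0.306% as higher. Between the constructs, CTSL and CTSS were lower in mut-FTO than in FTO, so that 2 of 9 passed, beside 2.33% of all genes, with 1.20% lower and 1.13% higher.

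**Figure D1:**
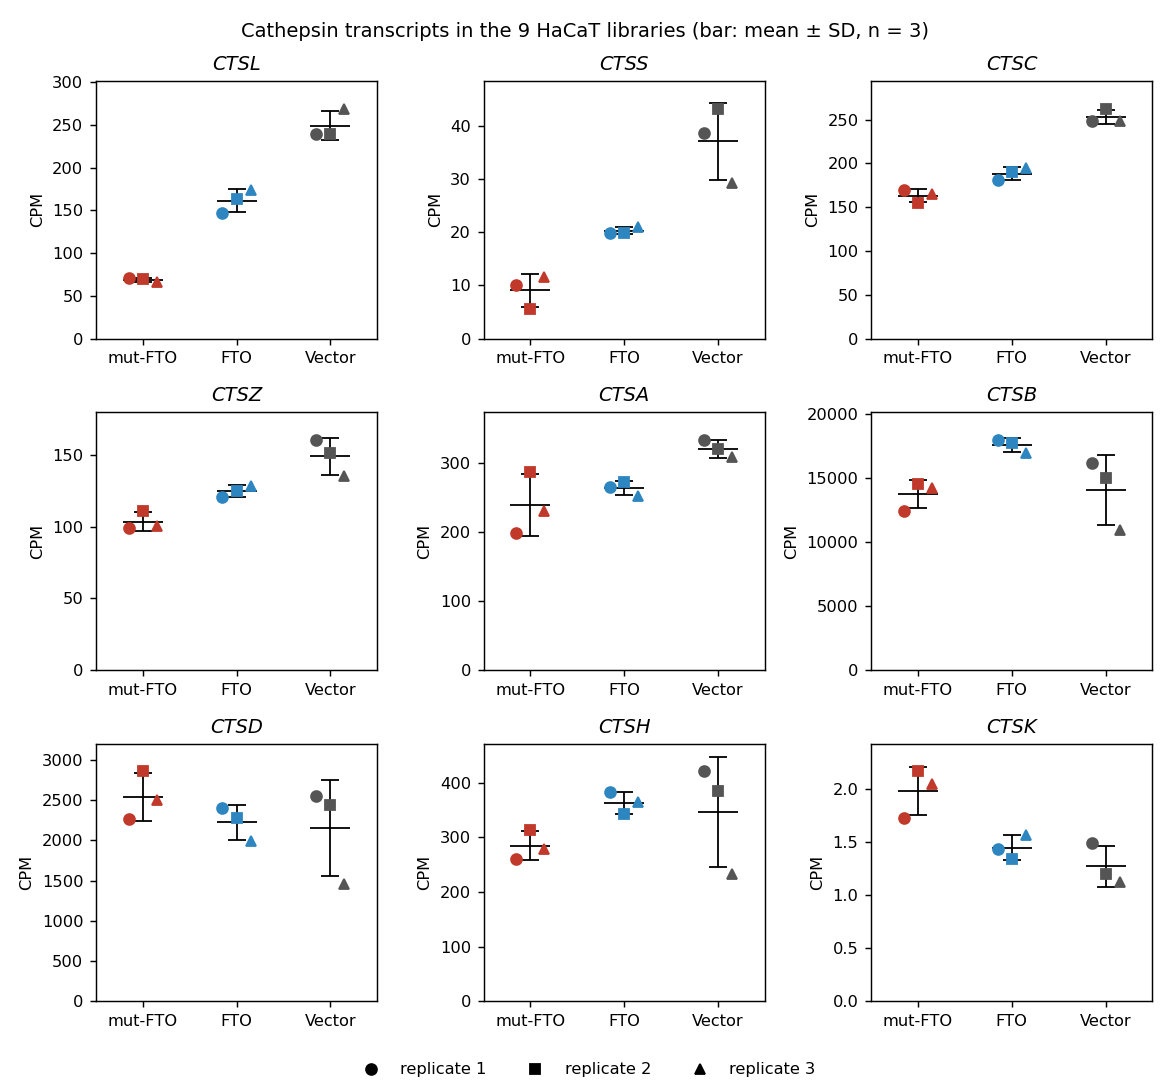
Level of each cathepsin in CPM in every library, with mut-FTO, FTO and Vector from left to right; symbols mark the replicate number, and bars give the mean ± SD of 3 libraries. For CTSL, CTSS, CTSC and CTSZ every mut-FTO library lies below every FTO library and every FTO library below every Vector library, while CTSB, CTSD and CTSH show Vector replicate 3 as the lowest point of its group.

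The bases before the transcription start of the genes that fell, as far as the RefSeq promoter table holds them, are shown because CTSL, CTSC and CTSZ moved the same way, and CTSD is shown as a cathepsin that did not pass. The table (build GRCh38.p14) matched 6 of the 9: CTSA, CTSC, CTSD, CTSH, CTSL and CTSZ. Each line gives the 250 bases before the start, 5′ to 3′ on the gene's strand. Capitals mark the E-box CACGTG, the GC box GGGCGG and the CCAAT box CCAAT, each searched on both strands, so that CCGCCC is a GC box on the other strand. In CTSD, 2 of the GC boxes overlap.
CTSL, chr9:87725869-87726118, plus strand: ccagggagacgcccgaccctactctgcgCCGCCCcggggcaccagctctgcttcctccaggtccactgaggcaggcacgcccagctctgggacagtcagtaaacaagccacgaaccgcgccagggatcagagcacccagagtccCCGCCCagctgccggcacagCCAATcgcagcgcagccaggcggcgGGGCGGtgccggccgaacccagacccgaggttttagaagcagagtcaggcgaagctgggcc
CTSC, chr11:88337737-88337986, minus strand: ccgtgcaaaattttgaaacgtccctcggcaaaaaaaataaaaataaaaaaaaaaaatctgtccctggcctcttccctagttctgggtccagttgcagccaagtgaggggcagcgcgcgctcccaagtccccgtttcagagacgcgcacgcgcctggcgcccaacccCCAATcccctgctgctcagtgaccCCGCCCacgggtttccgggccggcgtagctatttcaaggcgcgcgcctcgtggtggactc
CTSZ, chr20:59007255-59007504, minus strand: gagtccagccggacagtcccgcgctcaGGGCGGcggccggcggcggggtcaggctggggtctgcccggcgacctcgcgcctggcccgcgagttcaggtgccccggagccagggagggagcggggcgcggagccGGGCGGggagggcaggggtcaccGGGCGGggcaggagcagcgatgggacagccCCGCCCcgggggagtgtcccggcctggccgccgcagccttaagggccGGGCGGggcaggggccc
CTSD, chr11:1763928-1764177, minus strand: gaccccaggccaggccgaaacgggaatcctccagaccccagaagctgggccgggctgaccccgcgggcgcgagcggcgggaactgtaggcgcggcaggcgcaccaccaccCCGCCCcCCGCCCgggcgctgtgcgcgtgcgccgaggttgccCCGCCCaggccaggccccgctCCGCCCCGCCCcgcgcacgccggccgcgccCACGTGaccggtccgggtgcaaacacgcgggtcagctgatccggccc

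A GC box stood in all 6 cathepsin promoters, as in 67.1% of the 9932 promoters of tested genes. A CCAAT box stood in CTSL and CTSC, 86 and 84 bases before the start, and in 35.0% of tested promoters. The E-box, the core of the element bound by the lysosome regulators TFEB and TFE3, stood in CTSA and CTSD, neither of which passed in any comparison with all 9 libraries, and in 8.85% of tested promoters. The TATA box TATAAA, the STAT element TTCNNNGAA and the AP-1 site TGANTCA were in 0 of the 6, beside 5.45%, 5.69% and 4.14% of tested promoters. A match is a description of these letters and shows no binding.

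Among the proteases that cut inside a chain, CTSL, a broad lysosomal endopeptidase, had the lowest p of the 9 in each comparison. It stood at 71.3, 69.6 and 66.7 CPM in mut-FTO, 147, 164 and 173 CPM in FTO, and 239.7, 239 and 269 CPM in Vector. The 3 groups did not overlap anywhere, and the libraries within each were close together. CTSL averaged 69.2 ± 2.34 CPM in mut-FTO, 161 ± 13.6 CPM in FTO and 249 ± 17.2 CPM in Vector (SD, n = 3 each). The log2 fold change was -1.85 ± 0.14 (SE) for mut-FTO against Vector (edgeR adjusted p = 1.22e-05) and -1.22 ± 0.14 for mut-FTO against FTO (edgeR adjusted p = 0.000943). Both calls were kept under all 19 other settings tried. For FTO against Vector it was -0.63 ± 0.14 with an edgeR adjusted p of 0.0671, past no threshold, although all 3 FTO libraries lay below all Vector libraries. Without Vector replicate 3 that edgeR adjusted p was 0.00764, and DESeq2 also called CTSL there.

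CTSS encodes an endopeptidase that stays active at neutral pH and is best known from antigen-presenting cells. It was one of the scarcer members, at 10.03, 5.57 and 11.7 CPM in mut-FTO, 19.9, 19.9 and 21.0 CPM in FTO and 38.7, 43.2 and 29.2 CPM in Vector. Again every library of each group kept clear of the other groups, with mut-FTO replicate 2 the lowest of all and Vector replicate 3 the lowest of its group. These levels rest on 164 to 1545 counts per library. The log2 fold change was -2.02 ± 0.26 (SE) against Vector in mut-FTO (edgeR adjusted p = 0.000427), a call kept under all 19 other settings. Against FTO it was -1.15 ± 0.25 in mut-FTO (edgeR adjusted p = 0.0348). That call was lost when any 1 mut-FTO or FTO library was left out, with edgeR adjusted p from 0.0574 to 0.150. In FTO against Vector, CTSS was at -0.87 ± 0.25 with an edgeR adjusted p of 0.185, and 0.0107 without Vector replicate 3.

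CTSB encodes an endopeptidase that also removes dipeptides from carboxyl ends, and it carried by far the most cathepsin reads. It stood at 12467, 14547 and 14264 CPM in mut-FTO, 17996, 17770 and 16982 CPM in FTO and 16167, 15024 and 10963 CPM in Vector. The mut-FTO libraries lay among the Vector libraries and below all FTO libraries, and Vector replicate 3 was the lowest of the 9. CTSB ranked 2nd in mut-FTO, 1st in FTO and 2nd in Vector among 13713 genes by mean CPM. It did not pass in any comparison with all 9 libraries. The log2 fold change was -0.03 for mut-FTO against Vector, with a 95% interval of -0.43 to 0.37. It was 0.32 for FTO against Vector, with an interval of -0.08 to 0.73. For mut-FTO against FTO it was -0.35, with an interval of -0.76 to 0.05, although those groups did not overlap. Without Vector replicate 3 and mut-FTO replicate 2 together, CTSB was called lower there. The sign for mut-FTO against Vector is not settled, since it came out positive when mut-FTO replicate 1 or Vector replicate 1 or 2 was left out.

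CTSK, the collagen-degrading protease of osteoclasts, was near the lower end of what could be tested, with 40 to 71 counts per library. It stood at 1.73, 2.17 and 2.05 CPM in mut-FTO, 1.43, 1.34 and 1.57 CPM in FTO and 1.49, 1.20 and 1.13 CPM in Vector. The mut-FTO libraries lay above all others, while FTO and Vector overlapped. The log2 fold change of 0.64 ± 0.30 (SE) for mut-FTO against Vector did not pass (edgeR adjusted p = 0.248), and its 95% interval of -0.02 to 1.29 runs from about no difference to over 2-fold higher. CTSK and CTSS are next to each other on chromosome 1 in RefSeq, and their values in mut-FTO against Vector lay on opposite sides of 0.

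Among the proteases that trim chain ends, CTSC encodes dipeptidyl peptidase I, which activates the granule serine proteases of neutrophils and mast cells, and whose loss causes Papillon-Lefèvre syndrome, with thickened palms and soles. Its levels were 169, 155 and 165 CPM in mut-FTO, 181, 189.8 and 195 CPM in FTO and 248, 263 and 248 CPM in Vector. The groups did not overlap, and the gap below Vector was wider than the gap between the constructs. CTSC had a log2 fold change of -0.63 ± 0.13 (SE) in mut-FTO against Vector (edgeR adjusted p = 0.0109), which was lost without mut-FTO replicate 3 (edgeR adjusted p = 0.0559). In FTO against Vector it was -0.43 ± 0.13 (edgeR adjusted p = 0.227), and 0.0269 without Vector replicate 3. In mut-FTO against FTO it was -0.21 with a 95% interval of -0.50 to 0.08.

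CTSZ encodes a carboxypeptidase that removes single residues. It was at 99.2, 111 and 100.2 CPM in mut-FTO, 120.4, 125 and 129 CPM in FTO and 161, 151.5 and 135 CPM in Vector. All 3 groups kept apart, but by narrow gaps, with FTO replicate 3 close to Vector replicate 3. The log2 fold change was -0.53 ± 0.14 (SE) in mut-FTO against Vector (edgeR adjusted p = 0.0372). This was the weakest call of the set: it was lost on leaving out any 1 library other than Vector replicate 3, with edgeR adjusted p from 0.0606 to 0.151. With all 9 libraries, CTSZ did not pass in FTO against Vector, at -0.26, or in mut-FTO against FTO, at -0.27. Without Vector replicate 3 and mut-FTO replicate 2 together, it was called lower in FTO against Vector.

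CTSH encodes an aminopeptidase. It stood at 261, 313 and 279 CPM in mut-FTO, 382, 343 and 364 CPM in FTO and 421, 386 and 233 CPM in Vector. The mut-FTO libraries lay below all FTO libraries and below both Vector replicates 1 and 2, while Vector replicate 3 was the lowest library of all. CTSH did not pass in mut-FTO against Vector, with a log2 fold change of -0.29 ± 0.20 (SE) and an edgeR adjusted p of 0.467. Without Vector replicate 3 the value was -0.51 with an edgeR adjusted p of 0.00617. In FTO against Vector the log2 fold change was 0.07 with all libraries and -0.18 without that replicate, and neither passed.

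Of the members that are not cysteine proteases, CTSD encodes the main aspartic protease of lysosomes. It was at 2269, 2859.6 and 2495.5 CPM in mut-FTO, 2405, 2283 and 1986 CPM in FTO and 2549, 2434 and 1461 CPM in Vector. The groups overlapped throughout, and Vector replicate 3 was again the lowest. CTSD passed in no comparison. The value was 0.24 on the log2 scale in mut-FTO against Vector, with a 95% interval of -0.22 to 0.71, and 0.05 in FTO against Vector, with an interval of -0.41 to 0.51.

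CTSA encodes protective protein, a carboxypeptidase that also stabilizes β-galactosidase and neuraminidase 1 in a complex. It stood at 198, 287 and 231 CPM in mut-FTO, 265, 273 and 252 CPM in FTO and 333, 319.9 and 308 CPM in Vector. All libraries of both constructs lay below all Vector libraries, while mut-FTO replicate 2 reached above FTO. The log2 fold change was -0.43 ± 0.16 (SE) in mut-FTO against Vector (edgeR adjusted p = 0.136, and 0.0273 without Vector replicate 3) and -0.28 ± 0.16 in FTO against Vector (edgeR adjusted p = 0.504). In the GENCODE v29 annotation CTSA exons overlap those of PLTP and NEURL2 on the opposite strand, and CTSD exons overlap unlisted antisense and other loci, so these 2 genes are uncertain, because the strand setting of the counting is not known. PLTP, the lipid transfer protein gene beside CTSA, was at 87.6, 113.9 and 88.4 CPM in mut-FTO, 94.3, 97.4 and 88.4 CPM in FTO and 131, 131 and 91.8 CPM in Vector, and did not pass either.

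**Figure D2:**
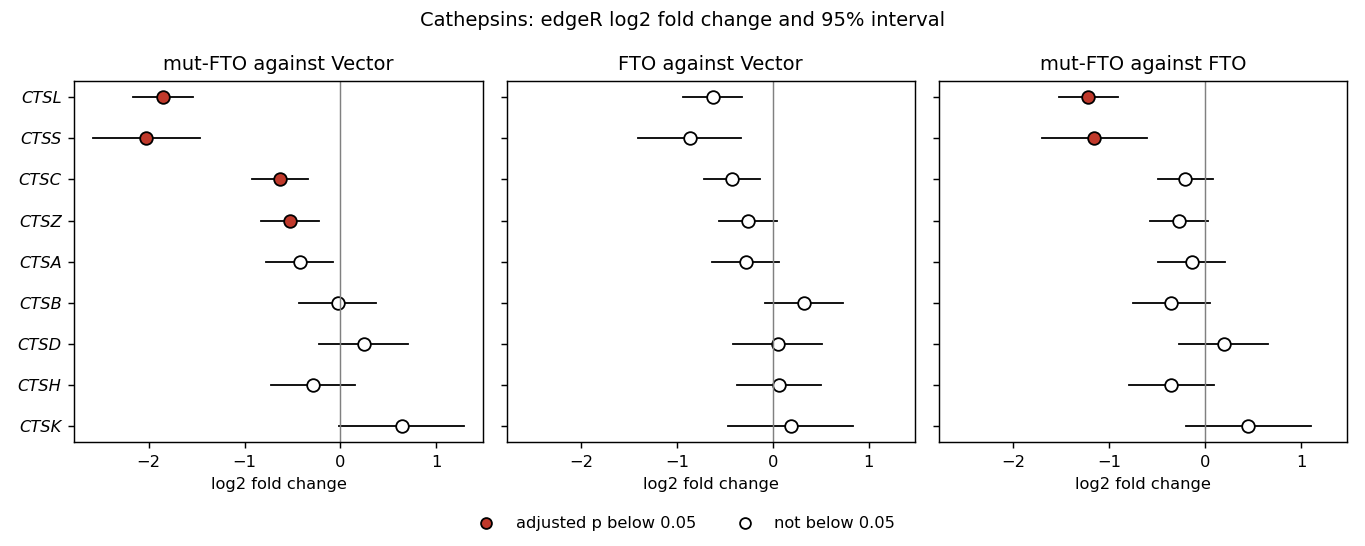
Log2 fold change of each cathepsin from the edgeR fit (points) with its 95% interval (lines) in 3 comparisons, the first-named group over the second; filled points have an adjusted p below 0.05. In mut-FTO against Vector the filled points are CTSL, CTSS, CTSC and CTSZ, in FTO against Vector none, and in mut-FTO against FTO CTSL and CTSS.

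Across the set, the median log2 fold change was -0.43 in mut-FTO against Vector, where the median of all genes tested was -0.0012. It was -0.26 in FTO against Vector and -0.27 in mut-FTO against FTO, where the medians of all genes were -0.0020 and -0.0046. The 3 comparisons share libraries and are not independent of each other. In mut-FTO against Vector, 6 of 9 cathepsins did not overlap between the groups, beside 24.0% of all genes. In FTO against Vector it was 6 of 9, beside 21.0%, and in mut-FTO against FTO 7 of 9, beside 29.0%. For the count of 0 called in FTO against Vector, limma-voom also gave 0, an unadjusted edgeR p below 0.05 gave 3, beside 11.9% of all genes, and DESeq2 gave 3, beside 1.79% of all genes called lower. In both counts the 3 were CTSL, CTSS and CTSC, all lower.

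The means fell into 3 orders. In CTSA, CTSC, CTSL, CTSS and CTSZ the mut-FTO mean was lowest, the FTO mean between and the Vector mean highest, an order that 21.9% of all tested genes had. For 4 of these 5, CTSC, CTSL, CTSS and CTSZ, the order held for every library, as it did in 2.28% of all tested genes. CTSB and CTSH had their highest mean in FTO and their lowest in mut-FTO. CTSD and CTSK had their highest in mut-FTO and lowest in Vector. Neither pair had a called difference with all 9 libraries. CTSL was the gene by which others were compared for likeness, as the cathepsin of lowest p. Over the 9 libraries, its log2 CPM had its highest Pearson correlations with IL1B (r = 0.997), LCP1 (r = 0.991) and B2M (r = 0.989), given as a description, since the groups stand apart and 13713 genes were searched.

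Per kilobase of transcript, which allows levels of different genes to be compared, the set spanned over 3 powers of 10. CTSB averaged 3551 CPM per kilobase in mut-FTO, 4537 in FTO and 3626 in Vector. CTSD followed with 1197 in mut-FTO, 1048 in FTO and 1012 in Vector. CTSL averaged 31.8 CPM per kilobase in mut-FTO, 74.0 in FTO and 114 in Vector, so that it was below CTSZ in mut-FTO, at 69.2, and above it in Vector, at 99.8. CTSS averaged 2.21 in mut-FTO, 4.94 in FTO and 9.02 in Vector. CTSK was the lowest in each group, at 1.17, 0.857 and 0.753 CPM per kilobase in mut-FTO, FTO and Vector.

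**Figure D3:**
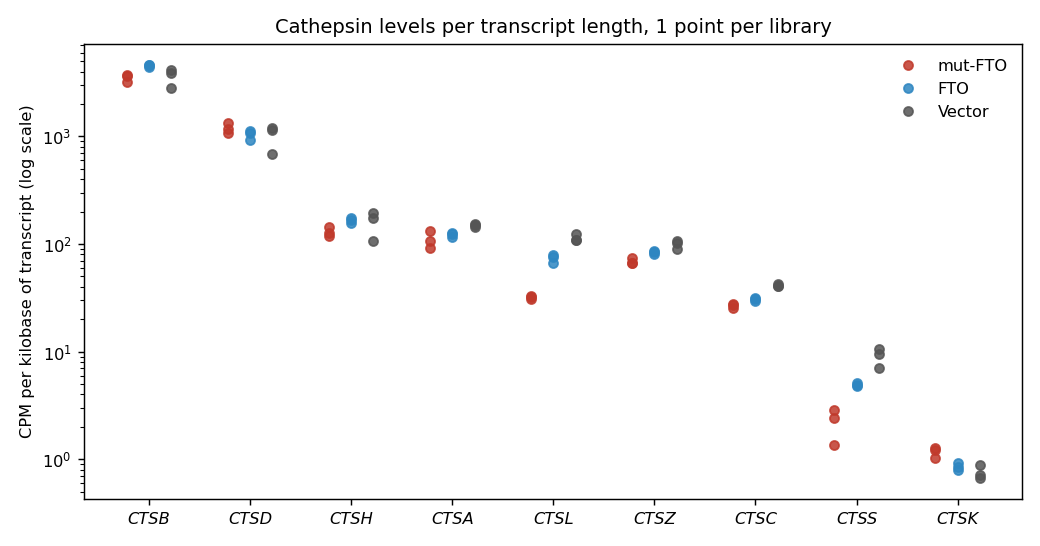
CPM per kilobase of transcript on a log scale for the 9 cathepsins, ordered from high to low in Vector, with 1 point for each library of mut-FTO (left), FTO (middle) and Vector (right). CTSB and CTSD stand above the rest in every library, and CTSL averages 31.8 in mut-FTO against 114 in Vector.

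Because CTSB dominates, the summed cathepsin share of all counts followed it and not CTSL. All 9 genes together took 1.58%, 1.68% and 1.75% of counts in mut-FTO, 2.14%, 2.13% and 2.01% in FTO, and 2.04%, 1.98% and 1.38% in Vector. The Wilson 95% interval of the first of these shares was 1.577% to 1.585%, and the others were as narrow; they cover counting error alone, as the protocol names no molecular identifiers that would tell PCR copies apart. CTSB alone made up 79.3% to 84.5% of cathepsin counts in every library. The makeup of the set differed more than its sum: for each 100 CTSB counts there were 0.572, 0.478 and 0.467 CTSL counts in mut-FTO, 0.815, 0.921 and 1.02 in FTO, and 1.48, 1.59 and 2.45 in Vector. These ratios within a library need no scaling between libraries, and the groups did not overlap. This ratio was chosen after the values were seen and was not tested.

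Vector replicate 3 bore on the members unequally. Against the mean of Vector replicates 1 and 2, its level was 57.8% for CTSH, 58.6% for CTSD, 70.3% for CTSB and 71.3% for CTSS, but 94.3% for CTSA, 97.2% for CTSC and 112.4% for CTSL. Without it, 6 cathepsins were lower in mut-FTO than in Vector (CTSA and CTSH in addition), beside 8.41% of all genes called lower. In FTO against Vector 3 were then lower, beside 2.26% of all genes, and in mut-FTO against FTO 2 were, beside 4.60%. Without mut-FTO replicate 2 as well, the counts lower were 6, 4 and 4 in the same comparisons, beside 9.62%, 4.19% and 4.63% of all genes. The part of its mitochondrial share in these values was not tested.

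**Figure D4:**
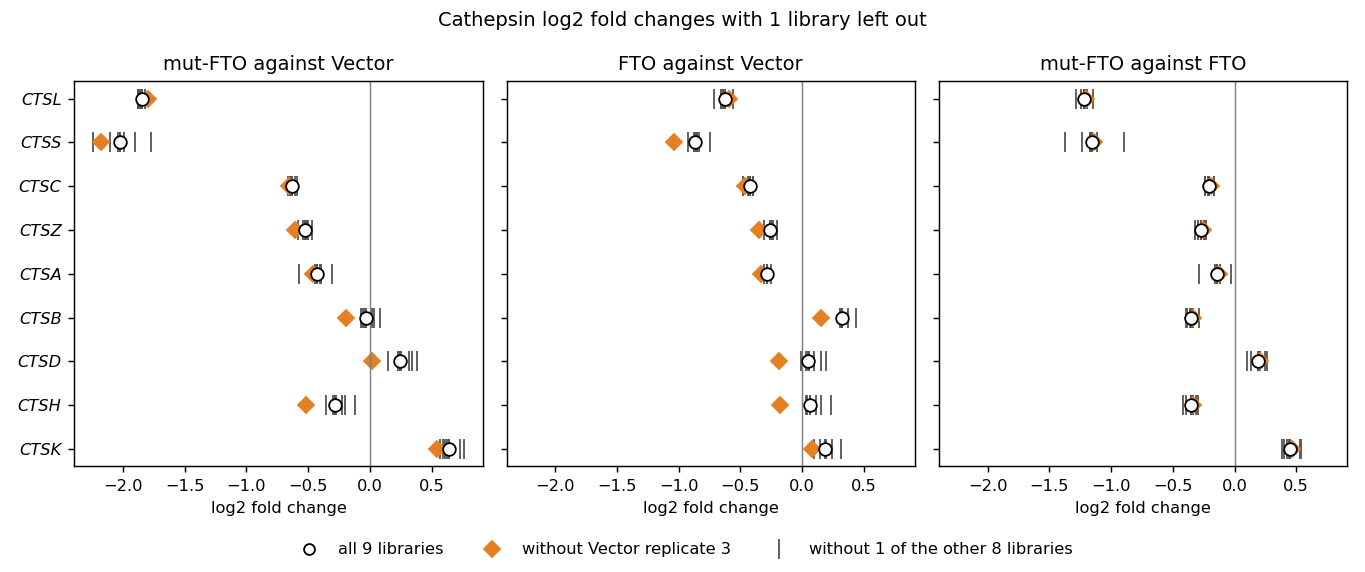
Log2 fold change of each cathepsin with all 9 libraries (circles), without Vector replicate 3 (diamonds) and without each of the other 8 libraries (ticks). The values of CTSL and CTSC hardly move, while CTSB, CTSD and CTSH in both comparisons with Vector shift lower without Vector replicate 3.

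Several cathepsins are abundant in immune cells, so markers of other cell types were read beside them. Of the 8 keratinocyte markers, KRT14 and KRT5 rose in mut-FTO against Vector, beside 3.27% of all genes called higher. The rises were 1.88-fold and 1.61-fold (edgeR adjusted p = 0.00876 and 0.0468). These calls were lost without 1 and 7 of the 9 libraries. The median log2 fold change of the 8 was 0.079, with 2 of them below 0. TP63 was lower at an unadjusted edgeR p below 0.05. Of 12 leukocyte markers, 4 to 8 had a count in a library. TYROBP had 0 counts in all 9 libraries, and PTPRC had 2 counts in mut-FTO replicate 1 and 0 in the other 8. The summed leukocyte level was 26.5 to 32.3 CPM in mut-FTO, 17.7 to 19.1 CPM in FTO and 15.6 to 19.0 CPM in Vector, most of it CD14. CD14 rose 2.01-fold in mut-FTO against Vector (edgeR adjusted p = 0.00600), and LAPTM5 fell 2.87-fold (edgeR adjusted p = 0.0382), a call lost without any of 7 libraries. The 8 fibroblast markers summed to 9.73 to 10.8 CPM in mut-FTO, 5.68 to 8.07 CPM in FTO and 9.15 to 10.01 CPM in Vector, with THY1 at 0 counts in all 9 libraries and 3 to 6 markers with a count. With all 9 libraries, DCN alone of them was called by edgeR against Vector, as higher in both constructs. It had 116, 46 and 61 counts in mut-FTO, 16, 27 and 42 in FTO and 0, 4 and 0 in Vector. The call of DCN in FTO was lost without any of 7 libraries (edgeR adjusted p from 0.0879 to 0.233) and with limma-voom. COL1A1 was called lower in FTO against Vector by DESeq2, and by edgeR without Vector replicate 3. The 6 melanocyte markers summed to at most 1.59 CPM and the 5 endothelial markers to at most 1.73 CPM in any library. In these bulk samples, fewer cells making a transcript and less transcript in each cell cannot be told apart, and the part of these markers in the cathepsin values was not tested.

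The other cathepsin genes were scarce. CTSV, the closest relative of CTSL in sequence, was at 9.95, 6.72 and 7.66 CPM in mut-FTO, 8.45, 10.6 and 13.7 CPM in FTO and 9.53, 9.23 and 7.05 CPM in Vector. Its groups overlapped, it passed in no comparison, and reads shared with CTSL could have been split between them. CTSF and CTSO were tested and did not pass with all 9 libraries, and CTSE, CTSG and CTSW had too few counts for testing. CTSF had 34, 29 and 28 counts in mut-FTO and 75, 84 and 17 in Vector. Without Vector replicate 3, CTSF was called lower in mut-FTO against Vector.

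With all 9 libraries, genes of the wider lysosome were called in mut-FTO against Vector at a share near that of all genes. Lists of inhibitors, processing and sorting factors, the CTSA complex, hydrolases, membrane proteins, proton pump subunits and regulators, with the other cathepsins, held 108 genes, of which 99 were tested. In mut-FTO against Vector 4 of the 99 rose and 5 fell, which is 9.09% against the 7.78% of all genes. Without Vector replicate 3, 6 rose and 18 fell, together 24.2% of the 99, beside 8.41% of all genes called lower. Without mut-FTO replicate 2 as well, 6 rose and 25 fell, together 31.3% of the 99, beside 9.62% of all genes called lower. For settings with libraries left out, no share of all genes called higher is given here, so the rises have no background beside them. In FTO against Vector 0 of 99 passed by edgeR and by limma-voom. There, 13 (13.1%) had an unadjusted edgeR p below 0.05, beside 11.9% of all genes. DESeq2 called 3, of which 2 were lower, beside 1.79% of all genes called lower. Without Vector replicate 3, edgeR called 5 lower and 1 higher there, beside 2.26% of all genes called lower. In mut-FTO against FTO only LIPA, the lysosomal acid lipase, passed, which is 1.01% of the 99 beside 2.33% of all genes. That call was lost without any of 7 of the 9 libraries. Without Vector replicate 3, LIPA was 1 of 9 genes called there, 5 lower and 4 higher, beside 4.60% of all genes called lower.

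Of the 7 inhibitors tested, CSTA, the cystatin of the cornified envelope, rose 1.70-fold in mut-FTO against Vector (edgeR adjusted p = 0.0473), at 142, 97.5 and 93.6 CPM in mut-FTO against 59.1, 54.8 and 82.1 CPM in Vector. That call was lost on leaving out any 1 library other than Vector replicate 3. Without Vector replicate 3, CSTB was called higher there as well as CSTA. Without mut-FTO replicate 2 in addition, CST3 was also called, as lower. Of the 11 processing and sorting genes, SORT1, a receptor that carries proteins to lysosomes, rose 1.87-fold (log2 fold change 0.90 ± 0.17 SE, edgeR adjusted p = 0.00547), a call kept without each of the 9 libraries. LGMN, the protease that matures several cathepsins, did not pass in mut-FTO against either group with all 9 libraries. Without Vector replicate 3, LGMN was called higher in mut-FTO than in FTO, but not without mut-FTO replicate 2 as well. None of the 3 tested genes of the CTSA complex passed with all 9 libraries, with GLB1 at -0.37 and NEU1 at -0.26 on the log2 scale in mut-FTO against Vector. Both were called lower there without Vector replicate 3.

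Of 34 hydrolases, GALC, which degrades galactosylceramide, rose 2.56-fold in mut-FTO against Vector (edgeR adjusted p = 0.00536), while SGSH, a sulfatase of heparan sulfate breakdown, fell 2.31-fold (edgeR adjusted p = 0.00588). LIPA fell 1.64-fold and GAA, acid α-glucosidase, rose 1.62-fold (edgeR adjusted p = 0.0167 and 0.0497). LIPA lost its call without mut-FTO replicate 2 or Vector replicate 2 (edgeR adjusted p = 0.0714 at most), and GAA without any of 7 libraries. Of 17 membrane proteins, NPC1, the cholesterol exporter of lysosomes, fell 2.04-fold (edgeR adjusted p = 0.00203). Of 16 proton pump subunits, ATP6AP2 fell 1.76-fold, with an edgeR adjusted p of 0.0407 that passed without only 2 of the 9 libraries. Of 8 regulators tested, TFE3, a transcription factor of lysosomal genes, fell 1.79-fold (log2 fold change -0.84 ± 0.16 SE, edgeR adjusted p = 0.00515). Its relative TFEB was at 0.61 ± 0.20 and did not pass (edgeR adjusted p = 0.0814), while DESeq2 called it higher. The calls of GALC, SGSH, NPC1 and TFE3 were kept without each library.

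Products of the MHC class II genes meet cathepsin S in antigen loading. Of 8 tested, 5 fell in mut-FTO against Vector and 2 in FTO against Vector, beside 4.51% and 0.438% of all genes. Without Vector replicate 3, 9 were tested, of which 6 and 5 fell, beside 8.41% and 2.26% of all genes. CD74, the invariant chain, was at 9.70, 22.6 and 14.6 CPM in mut-FTO, 11.6, 13.2 and 16.6 CPM in FTO and 51.0, 59.5 and 61.5 CPM in Vector. Both constructs lay well below Vector for CD74 and overlapped each other, unlike CTSS. CD74 fell 3.68-fold in mut-FTO (edgeR adjusted p = 0.00102) and 4.16-fold in FTO (edgeR adjusted p = 0.00408), and both calls were kept without each library. HLA-DRA fell 3.16-fold in mut-FTO and 2.61-fold in FTO (edgeR adjusted p = 0.00102 and 0.0191). The FTO call was lost without any FTO library or Vector replicate 2.

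HLA-DPA1 and HLA-DMA fell in mut-FTO against Vector, by 4.93-fold and 2.19-fold (edgeR adjusted p = 0.00485 and 0.0372), but HLA-DMA lost its call without any of 6 libraries. HLA-DRB1 was the other gene called, at a log2 fold change of -1.37, and its call was lost without any library other than Vector replicate 3. HLA genes have near-identical copies, and their counts are uncertain. In mut-FTO against FTO 0 of 8 passed by edgeR and limma-voom with all 9 libraries, where edgeR called 2.33% of all genes. CIITA, the master regulator of these genes, had an unadjusted edgeR p below 0.05 and was called by DESeq2 as higher in mut-FTO. By edgeR, CIITA was called higher there without Vector replicate 3, and also without mut-FTO replicate 2 in addition.

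Of the epidermal genes read as possible substrates or partners of cathepsins, 3 of 6 were tested. TGM1, the transglutaminase of the cornified envelope, which cathepsin D is known to activate, was at 216, 284 and 255 CPM in mut-FTO, 133, 116 and 131 CPM in FTO and 112, 153 and 99.2 CPM in Vector. The mut-FTO libraries lay above all others, and FTO and Vector overlapped. TGM1 rose 2.07-fold in mut-FTO against Vector (edgeR adjusted p = 0.00367), a call kept without each library. Against FTO it rose 1.99-fold (edgeR adjusted p = 0.0143), a call lost without any of 5 libraries. CTSD itself passed in neither comparison.

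**Figure D5:**
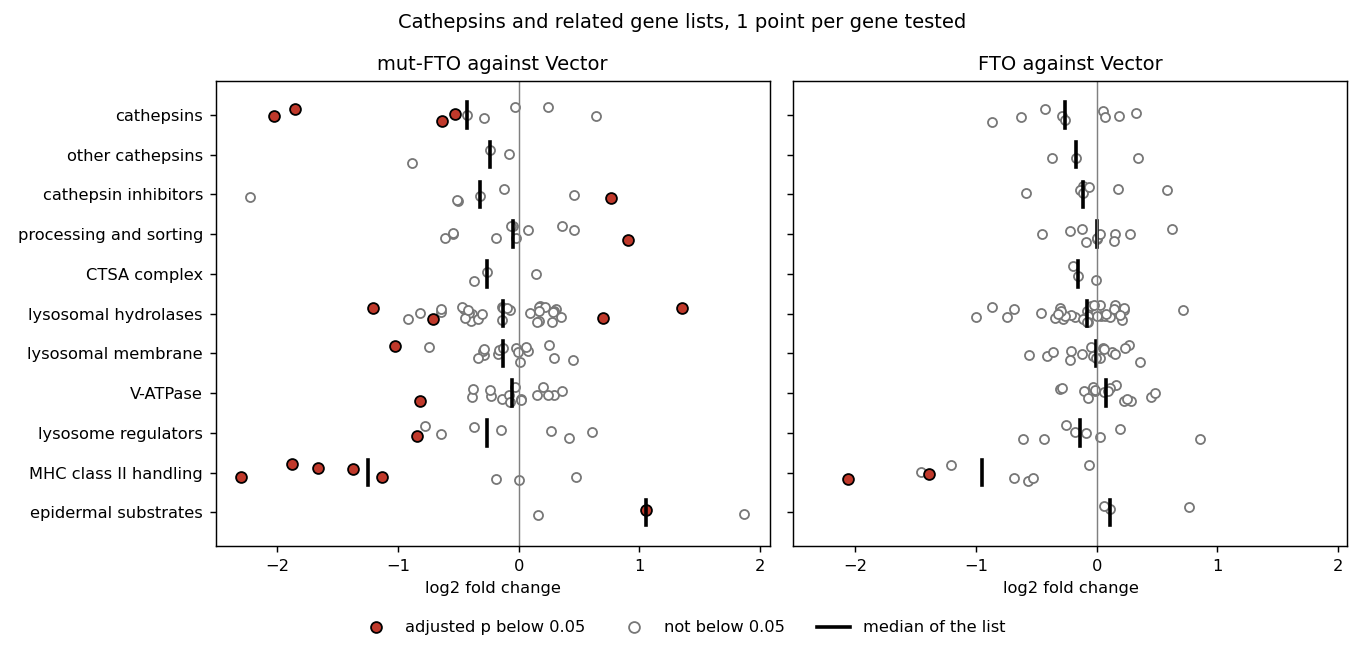
Log2 fold change of every tested gene of the cathepsins and 10 related lists in mut-FTO against Vector (left) and FTO against Vector (right); filled points have an adjusted p below 0.05 and vertical bars are list medians. Filled points lie on both sides of 0 among the lysosomal lists and on the lower side among cathepsins and MHC class II genes, with 2 filled points in all in FTO against Vector.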

How the data were processed

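Poly(A) RNA of 9 HaCaT libraries was analysed, 3 each of mut-FTO, FTO and Vector, grouped by the sample titles. The authors deposited raw counts for each gene as whole numbers. Per the submitters' processing notes, the tools were HISAT2 and StringTie. Those notes list the mouse build mm10, although the cells and symbols are human. Their versions and annotation, the counting program and its strand setting were not given in the sources used here. Columns were matched to groups and replicates by the letters and numbers in their names.

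Genes were kept by filterByExpr (minimum count 10, minimum total 15). Counts were scaled by TMM factors and tested with edgeR 4.0.16 in R 4.3.3, in 1 robust quasi-likelihood fit of all 9 libraries with a term per group. Adjusted p-values are Benjamini-Hochberg values over all 13713 genes tested, and the threshold was 0.05. CPM use TMM-scaled library sizes, and log2 CPM a prior count of 2. Lengths are those of the longest protein-coding transcript in GENCODE. The fit was tested on simulated data.

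The members, the gene lists and the tests were chosen with earlier results of these data known. All 9 cathepsins are named; of each other list, the 4 called members of lowest p, or the 2 of lowest p where none passed, could be named. HLA-DRB1, LGMN and TFEB fall outside that rule and were chosen after their values were seen. Alternatives were RLE factors, library size alone, DESeq2 1.42.0, limma-voom (limma 3.58.1), no filter on low counts, a minimum mean of 10 counts, a fit of only the 6 libraries compared, the replicate number as a block, each library left out, Vector replicate 3 and mut-FTO replicate 2 left out together, and no assembled loci or mitochondrial genes. Counts of the other lists without those 2 libraries were added after the data were seen. Within each group, no library repeated another within sampling noise.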

Additional observations from a re-analysis of the deposited data

How the results depend on the processing

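For the 9 cathepsins in 3 comparisons, 19 other settings gave 513 values, of which 467 kept their direction and side of the threshold, 21 lost a call, 16 gained one and 9 changed sign. No value that changed sign was called. CTSL and CTSS in mut-FTO against Vector and CTSL in mut-FTO against FTO were called in all 19. CTSZ in mut-FTO against Vector lost its call in 11 and CTSS in mut-FTO against FTO in 8. On leaving out 1 library, CTSB in mut-FTO against Vector ranged from -0.19 to 0.081 (log2), being 0.035, 0.081 and 0.018 without mut-FTO replicate 1, Vector replicate 1 and Vector replicate 2. CTSD in FTO against Vector ranged from -0.19 to 0.19, being -0.0075 without FTO replicate 1 and -0.19 without Vector replicate 3. CTSH there ranged from -0.18 to 0.23, at -0.18 without Vector replicate 3. Without that library and mut-FTO replicate 2 together, CTSD was -0.092 in mut-FTO against Vector and -0.18 in FTO against Vector, and CTSH -0.17 in the second. The causes were not tested.

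Genes called numbered 1067 in mut-FTO against Vector, 102 in FTO against Vector and 319 in mut-FTO against FTO. In the same order they numbered 1680, 366 and 751 with DESeq2, 621, 41 and 1218 with only the 6 libraries compared, and 2401, 1050 and 1196 without the 2 libraries above. Leaving out 1 library gave 609 to 2089, 27 to 476 and 71 to 1427. Cathepsins called were 4, 0 and 2; leaving out 1 library gave 2 to 6, 0 to 3 and 1 to 2, and leaving out the 2 libraries gave 6, 4 and 4. With only the 6 libraries 2 were called in mut-FTO against Vector, DESeq2 called 3 in FTO against Vector, and library size alone left 1 in mut-FTO against FTO. No scaling moved the median of all genes by more than 0.1 (log2).

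Replicate numbers pair samples only by name: over 9 same-numbered pairs the correlation of deviations from group means was -0.061 to 0.079. With the replicate block, genes called were 813, 67 and 222 and cathepsins called 3, 0 and 1, without CTSZ in mut-FTO against Vector and CTSS in mut-FTO against FTO. Depth limits CTSK most, with 40 to 71 counts per library. The swap of mut-FTO and FTO columns cannot be checked from expression.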
